A study of Mus musculus with 5 samples.

Results

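The nuclear genes of respiratory complexes II to V and of cytochrome c were followed in mammary glands of mice with and without a cyclin D1 transgene. Members were the probe sets with 1 annotated gene symbol that begins Uqcr, Atp5 or Cox4 to Cox8, or is Sdha, Sdhb, Sdhc, Sdhd, Cyc1 or Cycs. This gave 70 probe sets for 48 genes of the 19938 genes with a probe set of their own, namely 4 of complex II, 9 of complex III, 1 of cytochrome c, 17 of complex IV and 17 of complex V. Each gene was represented by its brightest probe set on average. Genes were chosen by symbol alone, although with earlier results of these data known, and the choice of the brightest probe set used measured values.

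The cyclin D1 mice were 3 females with both the MMTV-rtTA and the cyclin D1 (CCND1) transgene, and the controls were 2 females with MMTV-rtTA alone, so all 5 carried rtTA. All were of strain FvB/N and aged 8 weeks. rtTA is a transactivator that needs doxycycline to turn on a responder gene, and the MMTV promoter places it mainly in mammary epithelium, so the other cells of the gland need not carry the induced transgene. The treatment note gives 7 days of doxycycline for mice with a "KE mutant" of CCND1 and does not say whether the mice labelled cyclin D1 or the controls were given the drug. Each array held total RNA of the gland of 1 mouse. In such bulk tissue, fewer cells of a type and less RNA per cell cannot be told apart.

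Complex II oxidizes succinate and complex III passes electrons from ubiquinol to cytochrome c. Complex IV hands them to oxygen, and complex V, the ATP synthase, uses the proton gradient that complexes III and IV build. A few core subunits are made inside the mitochondrion from its own DNA, and all genes followed here lie in the nucleus. Several complex IV subunits have a widely expressed (liver-type) isoform and a second one used in heart, skeletal muscle or brown fat, or in testis or lung. Epithelial cells that make milk are rich in mitochondria.

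The arrays differed in range before any gene was compared. The SD over all genes was 1.32, 1.38 and 1.20 log2 units in cyclin D1 replicates 1, 2 and 3, and 0.735 and 0.926 in control replicates 1 and 2, while the median gene lay between 2.72 and 2.83 on every array. Bright genes therefore stood higher in cyclin D1 glands as a class. In the brightest decile of genes, by mean level, the median log2 difference (cyclin D1 minus control) was 1.59. Each member is for that reason also given after the 5 arrays were quantile-normalized again ("renormalized"), which makes their distributions equal. Ccnd1 itself read 4.63, 4.92 and 4.005 in cyclin D1 glands and 4.04 and 3.49 in controls, and its log2 difference of 0.75 (SE 0.32, limma adjusted p = 0.218) had the opposite sign, -0.14, after renormalization. The groups overlapped, so these values do not show induction of the transgene.

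As deposited, 10 of the 48 genes rose in cyclin D1 glands and 0 fell (limma, Benjamini-Hochberg adjusted p under 0.05 over all genes; 30 had an unadjusted p under 0.05, 1 of them lower, beside 26.3% of all genes in either direction). Of all genes, 5.38% rose and 0.687% fell. The 10 were Uqcrc2 and Uqcr10 of complex III, Cycs, Cox6a1, Cox6b1, Cox7b and Cox5b of complex IV, and Atp5a1, Atp5b and Atp5pb of complex V. None of the 4 complex II genes passed. Of the 48 genes, 31 lay in the brightest decile of all genes, where 36.0% rose, and 9 of these 31 members did so, or 29.0%. The share among the bright members was thus no higher than that of other bright genes. After renormalization 0 of the 48 passed, against 0.256% of all genes higher, 0.105% lower and 1.55% of the brightest decile higher. At an unadjusted p under 0.05 there were then 15 members, 9 of them higher, beside 18.7% of all genes.

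The median log2 difference over the 48 genes was 1.20 as deposited, beside -0.053 over all genes, and 0.13 after renormalization, beside -0.021. In 34 of the 48 genes all 3 cyclin D1 arrays lay above both controls, in 2 (Cox7b2 and Cox4i2) they lay below both, and in 12 the groups overlapped. The same separation upward held for 22.4% of all genes and 82.2% of the brightest decile, and for 25 of the 31 members in that decile, and the separation downward held for 22.6% of all genes. After renormalization 10 members separated upward, beside 20.1% of all genes and 33.7% of the brightest decile, and 9 separated downward, beside 19.5% and 18.1%. The count of 10, like that over all genes, fell to 0 without cyclin D1 replicate 1 or without cyclin D1 replicate 2. In these fits 21 and 23 members were higher at an unadjusted p under 0.05. The share of all genes at that cutoff was not counted in these fits, so the counts show nothing particular to the members. Without control replicate 1 only 1 control is left, so no calls are read from that fit here. The median over the 48 genes was then 0.88. Renormalized without control replicate 1, it was -0.052, beside 0.0073 over all genes.

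**Figure D1:**
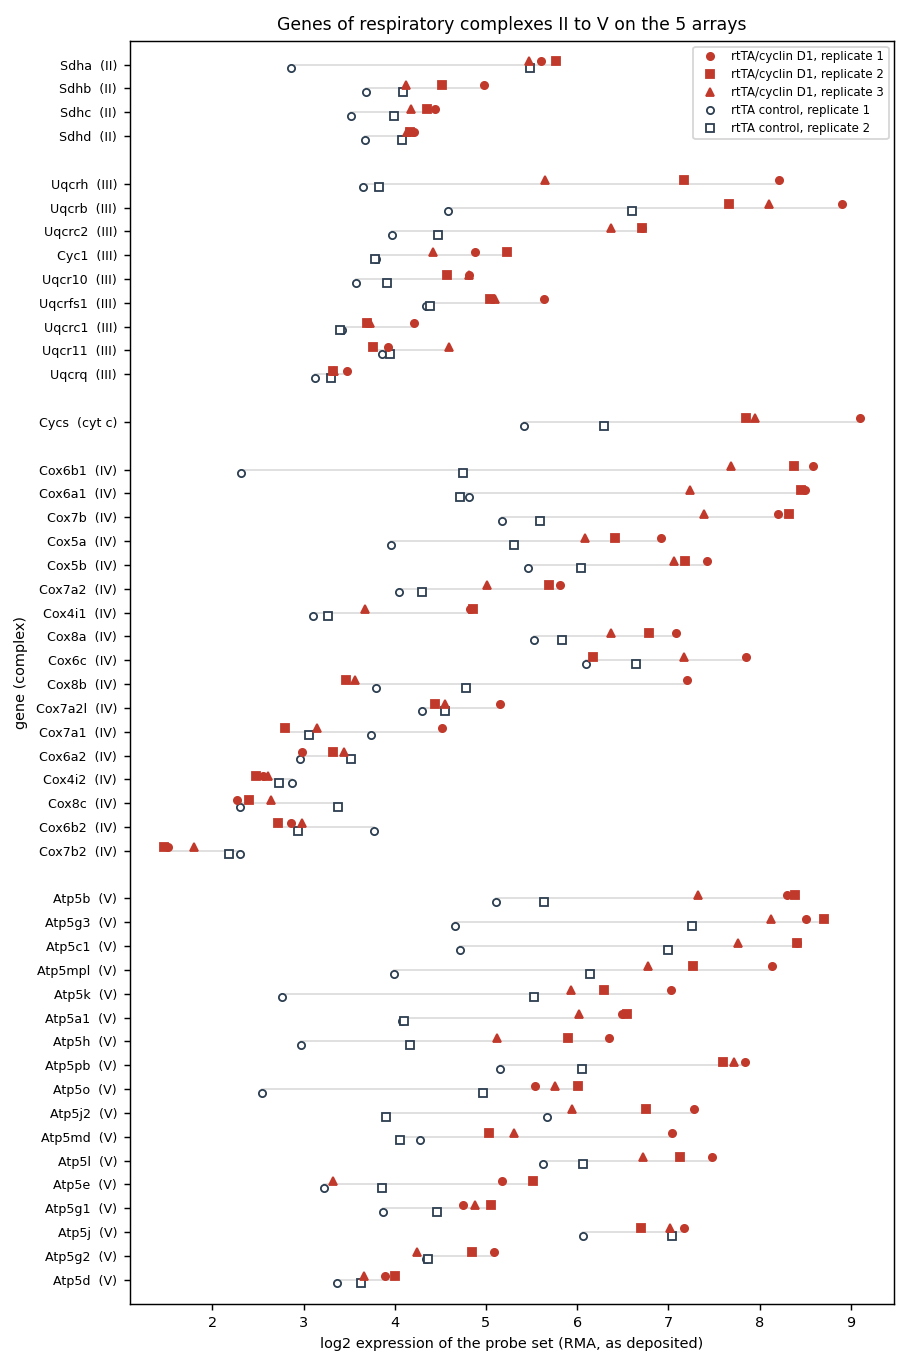
Log2 expression (x axis) of the 48 genes (y axis, grouped by complex and ordered by their difference) on each array, with filled red symbols for the 3 rtTA/cyclin D1 arrays and open symbols for the 2 rtTA control arrays. In 34 genes all red symbols lie right of both open ones, and for Cox6b1, Sdha, Atp5k and Atp5o the 2 controls themselves lie far apart.

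Complex II, which also serves the citric acid cycle, showed no called change with all 5 arrays. Sdha, the flavoprotein that binds succinate, read 5.60, 5.77 and 5.47 in cyclin D1 glands, and 2.86 and 5.48 in controls. Control replicate 2 lay within the cyclin D1 range, and control replicate 1 stood alone. The log2 difference of 1.45 (SE 0.74, limma adjusted p = 0.282) was 0.14 without control replicate 1 and 2.76 without control replicate 2. After renormalization it was 0.61, and -1.11 when control replicate 1 was also left out. Its size and sign thus depended on which control was kept and on the scaling. Sdhb, the iron-sulfur subunit, differed by 0.65, and Sdhc and Sdhd, the membrane anchors, by 0.57 and 0.30, all without passing and with the opposite sign (-0.18, -0.086 and -0.42) after renormalization. In each of these 3 genes the cyclin D1 arrays lay above both controls, by little: the lowest cyclin D1 value of Sdhd was 4.13 and the higher control 4.08.

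In complex III all 9 differences were positive as deposited, with a median of 0.98 on the log2 scale, and 7 stayed positive after renormalization. Uqcrc2, a core subunit, read 6.71, 6.71 and 6.37 in cyclin D1 glands, against 3.97 and 4.47 in controls. The groups were far apart relative to their spread, and Uqcrc2 rose by 2.38 (SE 0.22, adjusted p = 0.0165), or 5.20-fold. Its renormalized difference of 0.96 had an adjusted p = 0.0541, the smallest of any member. Uqcr10, a small structural subunit, read 4.81, 4.57 and 4.82 in cyclin D1 glands and 3.58 and 3.92 in controls and rose by 0.98 (SE 0.17, adjusted p = 0.0393), with 0.23 after renormalization.

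Uqcrh, the hinge protein that helps cytochrome c dock, read 8.21, 7.17 and 5.65 in cyclin D1 glands and 3.66 and 3.82 in controls. The groups did not overlap, but the cyclin D1 arrays lay far apart, and the difference of 3.27 (SE 0.73), the highest in complex III, did not pass (adjusted p = 0.0650). It passed without cyclin D1 replicate 3 (3.95, adjusted p = 0.0466), the lowest of its group. Uqcrb, whose probe sets all gave positive differences of 1.94 to 2.63, did not pass either, and its controls read 4.59 and 6.603. Uqcrfs1 (the Rieske iron-sulfur protein), Cyc1 (the cytochrome that reduces cytochrome c) and Uqcrc1 (the other core subunit) differed by 0.89, 1.05 and 0.47, and that of Uqcrfs1 was -0.46 after renormalization. Uqcrq had the lowest difference, 0.17 (SE 0.14, adjusted p = 0.463), and its values lay between 3.12 and 3.48 on all arrays. The 2 probe sets of Uqcr11 gave differences of -0.13 and 0.19 and thus no common direction.

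Cycs, the mobile carrier between complexes III and IV, read 9.10, 7.85 and 7.95 in cyclin D1 glands, against 5.41 and 6.30 in controls. It rose by 2.44 (SE 0.47, adjusted p = 0.0484), just within the threshold. After renormalization it differed by 0.71 without passing. Without any one of the arrays it did not pass, at adjusted p = 0.0777 to 0.192. A second bright probe set of Cycs differed by 3.05, whereas a dim one, with a mean of 2.37, differed by -0.49. Processed copies of Cycs and of several other members occur in the genome, and which probe sets read them was not tested.

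Complex IV held the highest difference of all 48 genes and also the 7 isoforms of particular tissues. The 10 widely expressed genes, among them the supercomplex factor gene Cox7a2l, were all positive as deposited with a median of 1.40. Of these 4 rose, and after renormalization 6 of the 10 were positive, with a median of 0.22. Cox6b1, which links the monomers of the complex IV dimer, read 8.58, 8.38 and 7.68 in cyclin D1 glands and 2.31 and 4.75 in controls. Olfactory receptor genes, silent in most tissues, averaged 2.52 in control replicate 1 and served as a rough floor of signal. Cox6b1 was under it there, so the size of the difference is inexact. Cox6b1 rose by 4.68 (SE 0.74, adjusted p = 0.0332) and differed by 3.72 after renormalization (adjusted p = 0.122). Within each array it ranked at percentiles 99.5, 99.3 and 99.1 of all genes in cyclin D1 glands, and at 17.1 and 95.2 in the controls.

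Cox6a1, the liver-type isoform of a subunit that tunes the enzyme to the energy state, read 8.50, 8.46 and 7.24 in cyclin D1 glands, and 4.82 and 4.71 in controls. Its controls differed by 0.10 log2 units, unlike those of Cox6b1, and it rose by 3.30 (SE 0.42, adjusted p = 0.0226) or 9.85-fold, with 1.57 after renormalization. Cox7b, a small subunit encoded on the X chromosome, read 8.20, 8.33 and 7.39 in cyclin D1 glands and 5.18 and 5.59 in controls. It rose by 2.59 (SE 0.33, adjusted p = 0.0227). Its second probe set was brighter than this one in both controls, at 5.82 and 5.69, and differed by only 1.11. Cox5b, a matrix-facing subunit, read 7.42, 7.18 and 7.06 in cyclin D1 glands and 5.46 and 6.04 in controls. It rose by 1.47 (SE 0.23, adjusted p = 0.0319) as deposited, but its renormalized value of -0.32 had the opposite sign. Cox4i1, Cox5a, Cox7a2, Cox8a and Cox6c had differences of 1.26, 1.84, 1.33, 1.07 and 0.69 without passing, and those of Cox8a and Cox6c turned to -0.71 and -1.12 after renormalization. The other probe set of Cox6c differed by 1.68 as deposited. Cox7a2l differed by 0.29, with -0.94 after renormalization.

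The 7 tissue isoforms of complex IV had a median difference of -0.26 (-0.36 after renormalization), and 0 of them passed. Among the testis and lung forms, Cox7b2 was under that floor on all 5 arrays and has no usable difference. Cox4i2 differed by -0.26, Cox6b2 by -0.50 and Cox8c by -0.40, none passing. The muscle isoform Cox6a2 read 2.99, 3.32 and 3.45 in cyclin D1 glands and 2.97 and 3.52 in controls, a difference of 0.0085 (SE 0.24, adjusted p = 0.986) with complete overlap and the opposite sign, -0.096, after renormalization. Its partner Cox6a1 lay more than 3 log2 units higher in cyclin D1 glands, as given above.

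Cox8b and Cox7a1 are the isoforms of muscle and brown fat. Cox8b read 7.21, 3.46 and 3.56 in cyclin D1 replicates 1, 2 and 3, and 3.80 and 4.78 in controls. Cox7a1 read 4.51, 2.80 and 3.15 in cyclin D1 glands and 3.74 and 3.06 in controls. Cyclin D1 replicate 1 was the highest array in both, and the other 2 cyclin D1 arrays lay below both controls for Cox8b. By rank within the array it was highest for Cox8b as well, at percentile 98.4 of all genes against 95.5 in control replicate 2, but not for Cox7a1, at 87.1 against 89.4 in control replicate 1. The group differences of 0.45 for Cox8b (SE 1.22, adjusted p = 0.833) and 0.082 for Cox7a1 (SE 0.55, adjusted p = 0.937) were -0.78 and -0.43 without that mouse, and -0.55 and -0.36 after renormalization.

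Ucp1, the uncoupling protein that defines brown adipocytes, read 6.93, 3.58 and 3.05 in cyclin D1 glands and 2.81 and 3.15 in controls. Cidea, another brown fat gene, read 4.32, 4.17 and 2.61 in cyclin D1 glands and 2.47 and 2.90 in controls and so was raised in replicate 2 as well. Of the 10 brown adipocyte markers listed 0 passed, 6 were positive and the median difference was 0.044. Ppargc1a differed by 0.72, while Eva1a (-0.66), Zic1 (-0.16), Kng2 (-0.10) and Lhx8 (-0.044) were negative. The summed signal of the 10 was 6.29 to 7.73 in cyclin D1 glands, the top value being replicate 1, and 6.21 to 6.25 in controls (log2 of the summed linear values). Without Ucp1 the other 9 summed to 6.13 to 6.51 in cyclin D1 glands, replicate 1 again being the top value, and 6.03 to 6.11 in controls. The 16 skeletal muscle markers summed to 6.62 to 6.78 in cyclin D1 glands and 6.84 to 6.93 in controls, and 0 passed. Of the 16, 15 were negative. Ryr1 at -0.41, Atp2a1 at -0.52 and Myh4 at -0.41 lay below both controls on all cyclin D1 arrays. They lay in deciles 4, 6 and 3 of mean level, counted from the dimmest, where all genes had medians of -0.16, -0.064 and -0.19. After renormalization 12 of the 16 were negative, with a median of -0.19. Acta1 and Ckm, the muscle actin and creatine kinase genes, lay between 2.54 and 3.56 on all arrays. The part of brown fat cells in the Cox8b and Cox7a1 values was not tested.

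Whether the members of an isoform pair changed unequally was asked for 3 pairs by the difference of their log2 values within each array. Cox6a2 minus Cox6a1 was -5.51, -5.13 and -3.79 in cyclin D1 glands and -1.85 and -1.19 in controls, so the tissue form was lower relative to its partner in all 3 cyclin D1 glands. Cox7a1 minus Cox7a2 was -1.30, -2.89 and -1.86 in cyclin D1 glands and -0.30 and -1.24 in controls, also with no overlap. Cox8b minus Cox8a was 0.13, -3.33 and -2.81 in cyclin D1 glands and -1.72 and -1.05 in controls, with overlap. The exact two-sided permutation p was 0.2 for each of the Cox6a and Cox7a pairs, which is the smallest that 3 against 2 arrays can give, and 0.8 for the Cox8 pair (0.3, 0.3 and 0.8 adjusted over the 3 pairs). No pair could pass, and the differences between the groups were -3.29, -1.25 and -0.62. Cox6a2 and Cox7a1 lay in deciles 7 and 8 of mean level, where all genes had median differences of 0.025 and 0.17. Cox6a1 and Cox7a2 lay in the brightest decile, where the median was 1.59, and the pair values as deposited are not corrected for this gap. The Cox8 pair turned to 0.16 after renormalization, where the other 2 pairs were -1.67 and -0.41.

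**Figure D2:**
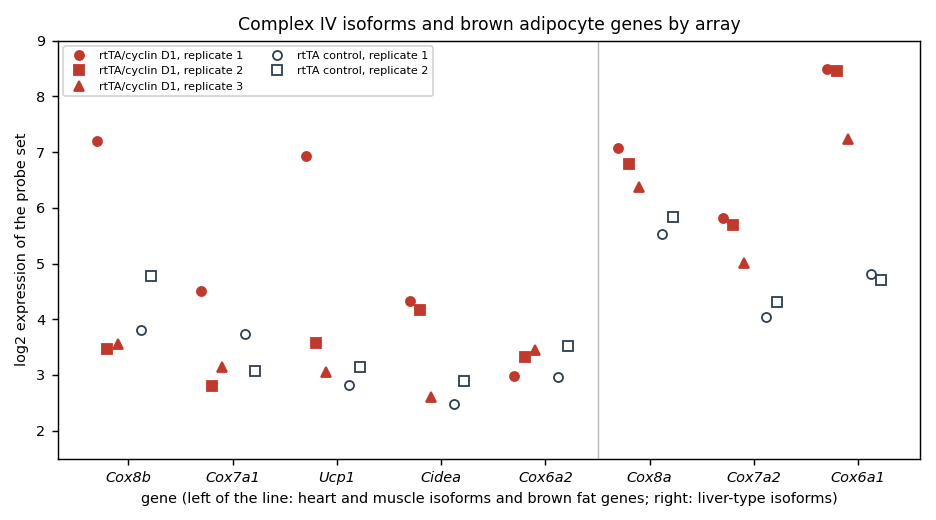
Log2 expression (y axis) of complex IV isoforms and 2 brown adipocyte genes on each array, with filled red symbols for rtTA/cyclin D1 and open symbols for rtTA control. Cyclin D1 replicate 1 stands apart in Cox8b at 7.21 and Ucp1 at 6.93, while the liver-type forms Cox8a, Cox7a2 and Cox6a1 lie above both controls on all 3 cyclin D1 arrays.

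Promoter sequence was set beside these values for the widely expressed members and the tissue isoforms. RefSeq windows (GRCm38.p6, 250 bases before to 50 after a gene start) were at hand for 36 of the 48 genes, 39 windows in all. They were searched on both strands for the cores of GABP and other ETS factors (CCGGAAG), NRF1 (GCATGCG), YY1 (AAGATGG), ERR (AAGGTCA) and the SP1 GC box (GGGCGG). An ETS core stood in 33.3% of member windows and in 8.86% of all 32851 windows of the table. An NRF1 core stood in 23.1% against 3.58%, an ERR core in 12.8% against 4.72%, a YY1 core in 7.69% against 6.34% and a GC box in 38.5% against 35.7%. Member windows held a median of 19 CpG dinucleotides, against 7 over all windows, and the shares were not matched for base composition. Of the 4 windows of tissue isoforms, 0 held an ETS or NRF1 core and 2 (Cox6b2 and Cox7b2) held a GC box, and 4 windows are too few to compare. Among the 8 windows of called members 2 held an ETS core and 2 an NRF1 core.

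The 250 bases before the start of 5 genes are shown, with the searched motifs in capitals. Cox6a1 and Cox6b1 had the highest called differences and Cycs links the complexes, while Cox7a1 and Cox8b are the isoforms of muscle and brown fat. The windows lie at chr5:115348959-115349208 (minus strand), chr7:30626115-30626364 (minus strand), chr6:50566570-50566819 (minus strand), chr7:30183921-30184170 (plus strand) and chr7:140900447-140900696 (minus strand), and each reads 5′ to 3′ toward its gene.
Cox6a1: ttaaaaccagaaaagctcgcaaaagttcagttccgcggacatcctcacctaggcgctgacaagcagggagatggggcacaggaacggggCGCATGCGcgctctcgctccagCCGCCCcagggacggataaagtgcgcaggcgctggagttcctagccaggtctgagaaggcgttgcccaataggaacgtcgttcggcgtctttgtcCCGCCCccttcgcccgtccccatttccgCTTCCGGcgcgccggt
Cox6b1: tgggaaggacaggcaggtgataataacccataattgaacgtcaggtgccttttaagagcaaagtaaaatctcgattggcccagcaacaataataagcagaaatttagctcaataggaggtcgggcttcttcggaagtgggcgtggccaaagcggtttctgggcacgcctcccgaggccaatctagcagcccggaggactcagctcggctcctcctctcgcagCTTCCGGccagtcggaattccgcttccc
Cycs: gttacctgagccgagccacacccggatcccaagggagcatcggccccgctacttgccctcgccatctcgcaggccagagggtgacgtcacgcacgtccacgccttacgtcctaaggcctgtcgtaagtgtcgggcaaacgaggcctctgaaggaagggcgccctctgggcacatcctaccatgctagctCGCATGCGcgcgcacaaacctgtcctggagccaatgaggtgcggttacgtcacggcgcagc
Cox7a1: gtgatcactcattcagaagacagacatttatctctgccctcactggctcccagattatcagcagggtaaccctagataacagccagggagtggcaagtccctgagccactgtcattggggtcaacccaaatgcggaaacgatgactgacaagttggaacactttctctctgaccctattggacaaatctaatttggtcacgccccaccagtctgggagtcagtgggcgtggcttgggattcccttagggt
Cox8b: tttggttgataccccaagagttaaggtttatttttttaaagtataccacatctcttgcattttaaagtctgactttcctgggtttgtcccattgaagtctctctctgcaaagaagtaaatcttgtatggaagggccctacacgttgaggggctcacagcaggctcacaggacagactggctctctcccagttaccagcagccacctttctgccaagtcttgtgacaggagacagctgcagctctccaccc
Cox6a1 holds an NRF1 core, GC boxes and an ETS core, Cox6b1 an ETS core and Cycs an NRF1 core, whereas none of the 5 motifs is in the shown bases of Cox7a1 and Cox8b. A match is a run of letters and does not show binding.

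Complex V had the highest median difference of the 4 complexes, 2.01 on the log2 scale, and all 17 of its genes were positive as deposited (12 after renormalization, median 0.51). It also had the most genes in the brightest decile, 15 of 17, against 1 of 4 in complex II, 4 of 9 in III and 10 of 17 in IV. In that decile 1904 of all 1994 genes were positive, with a median of 1.59. Renormalized without control replicate 1, the complex V median was -0.022. Of its catalytic head, Atp5a1 (the alpha subunit) read 6.49, 6.54 and 6.01 in cyclin D1 glands, against 4.07 and 4.10 in controls. The controls were nearly equal, and Atp5a1 rose by 2.26 (SE 0.20, adjusted p = 0.0165), with 0.87 after renormalization. Atp5b, the catalytic beta subunit, read 8.30, 8.39 and 7.32 in cyclin D1 glands and 5.11 and 5.64 in controls and rose by 2.63 (SE 0.38, adjusted p = 0.0285), the highest difference of complex V. Atp5c1, the gamma subunit that turns inside the head, read 8.41, 8.40 and 7.76 in cyclin D1 glands and 4.71 and 6.99 in controls. The controls lay far apart, and the difference of 2.34 did not pass (adjusted p = 0.107). Atp5d and Atp5e, the delta and epsilon subunits of the central stalk, differed by 0.35 and 1.13 without passing, and Atp5d had the lowest difference of the complex, with -0.032 after renormalization.

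Of the peripheral stalk, Atp5pb (subunit b) read 7.84, 7.60 and 7.71 in cyclin D1 glands, against 5.16 and 6.05 in controls, and rose by 2.12 (SE 0.28, adjusted p = 0.0249). Its second probe set differed by 1.00. Atp5h (subunit d) and Atp5o (the oligomycin-sensitivity protein) differed by 2.22 and 2.01 without passing. Atp5j, coupling factor 6, differed by 0.41 as deposited and by -1.37 after renormalization, the lowest renormalized value of all 48 genes (adjusted p = 0.0669). Stalk genes thus ranged from a called rise to no call with a sign that depended on the scaling.

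Subunit c, of which the proton-driven ring is built, comes from 3 genes with the same mature protein. Atp5g3 read 8.51, 8.70 and 8.12 in cyclin D1 glands and 4.66 and 7.26 in controls, a difference of 2.49 (SE 0.75, adjusted p = 0.116). Atp5g1 read 4.75, 5.05 and 4.88 in cyclin D1 glands and 3.87 and 4.46 in controls, a difference of 0.73 (adjusted p = 0.118), with -0.35 after renormalization. Atp5g2 read 5.09, 4.85 and 4.25 in cyclin D1 glands and 4.34 and 4.36 in controls, a difference of 0.38 (adjusted p = 0.410), with -0.86 after renormalization. None of the 3 passed, and the unequal size of their differences was not tested. The membrane genes Atp5k, Atp5l, Atp5j2, Atp5md and Atp5mpl differed by 1.27 to 2.33 without passing. Atp5l, at 1.27, had the opposite sign (-0.50) after renormalization. Its 6 probe sets differed by 1.27 to 1.98 as deposited, and the one used gave the lowest of these.

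**Figure D3:**
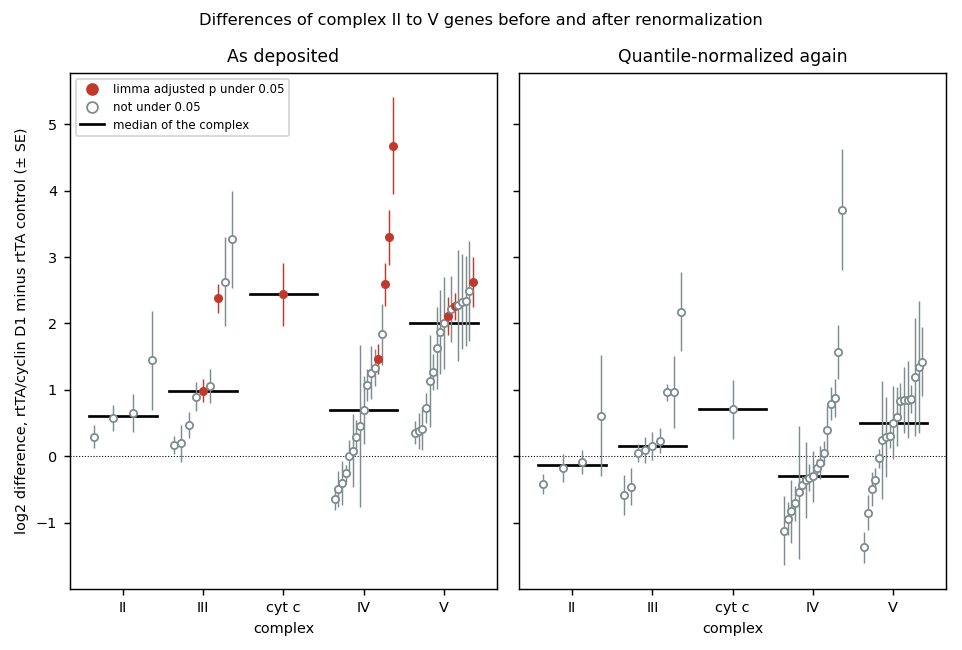
Log2 difference, rtTA/cyclin D1 minus rtTA control (y axis, with limma standard errors), for the genes of each complex (x axis), as deposited on the left and after renormalization on the right; black bars are medians and filled red points passed. Of the 48 genes 10 passed as deposited and 0 after renormalization, where the medians of complexes II and IV lie below 0. Complex IV includes 7 tissue isoforms, and the renormalized median of its 10 widely expressed genes was 0.22.

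The controls did not agree on many members. Control replicate 2 exceeded control replicate 1 by more than 1 log2 unit in 11 of the 48 genes, namely Sdha, Uqcrb, Cox6b1, Cox5a, Cox8c, Atp5h, Atp5c1, Atp5g3, Atp5mpl, Atp5o and Atp5k, and the reverse held for 1 gene, Atp5j2. This was the case for 34.1% of the genes in the brightest decile and 5.45% of all genes. Atp5o, for example, read 5.53, 6.01 and 5.76 in cyclin D1 glands and 2.55 and 4.97 in controls, and Atp5k read 7.03, 6.29 and 5.94 in cyclin D1 glands and 2.76 and 5.53 in controls. Only Cox6b1 of these 11 passed the test. Within the cyclin D1 group, replicate 1 was the highest array in 30 of the 48 genes and replicate 3 the lowest in 27, or 56.3%, and replicate 3 was lowest in 56.5% of the genes in the brightest decile.

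**Figure D4:**
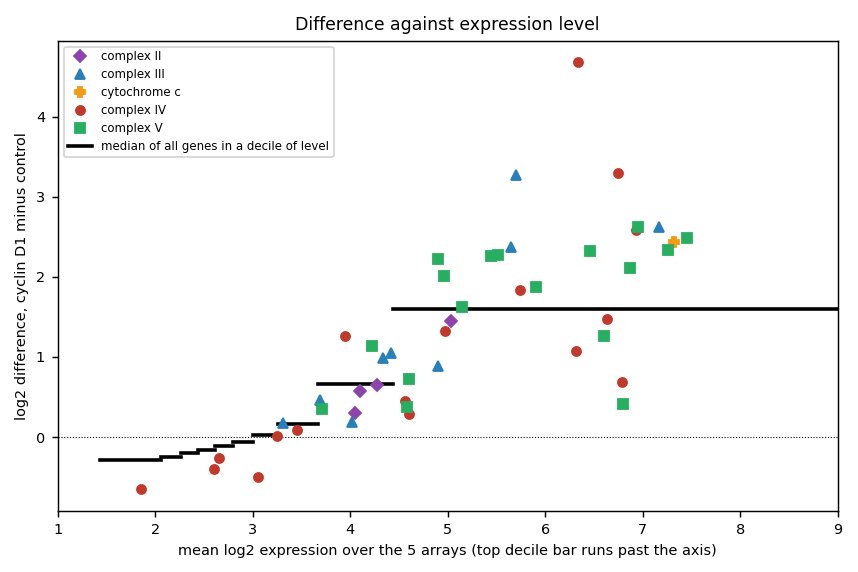
Log2 difference, cyclin D1 minus control (y axis), against mean log2 expression over the 5 arrays (x axis) for the 48 genes, coloured by complex; black bars are the median difference of all genes in each decile of level. The bars climb from -0.29 in the dimmest decile to 1.59 in the brightest, where 31 of the 48 genes lie, and Cox6b1 and Cox6a1 stand highest above them.

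Genes that act with the complexes were described from lists. After renormalization 1 gene of these lists, Timm23, passed, and the shares of all genes and of the brightest decile that rose as deposited are those given above. The mitochondrial DNA was represented by 2 probe-set genes, both very bright. COX2, a catalytic subunit of complex IV, read 11.72, 11.16 and 11.55 in cyclin D1 glands and 11.73 and 11.43 in controls. ND3 of complex I read 10.90, 10.56 and 11.01 in cyclin D1 glands and 11.60 and 10.84 in controls. Their differences of -0.11 and -0.39 did not pass (adjusted p = 0.778 and 0.402), and the groups overlapped in both. Renormalized, they were -0.93 and -1.20, with all cyclin D1 arrays below both controls.

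Of 22 assembly and regulatory genes of complex IV 4 rose and 0 fell, with a median of 0.40. Lrpprc, which stabilizes mitochondrial messenger RNAs, rose by 1.58, Higd2a, an assembly factor, by 2.03, Cmc1 by 1.87, and Coa5 by 1.00 (adjusted p = 0.0178 to 0.0332), although Coa5 turned to -0.61 after renormalization. Of 4 complex V factors Atpif1, the inhibitor that stops the ATP synthase from running backward, rose by 3.11 (SE 0.48, adjusted p = 0.0325), while Tmem70 and Atpaf1 differed by 0.84 and 0.25. Of 10 assembly factors of complexes II and III 0 passed, with a median of 0.068, and Uqcc2 differed by -1.02, Ttc19 by 0.66 and Sdhaf1 by 0.40. Of 12 regulators of mitochondrial gene expression Gabpa, the DNA-binding chain of GABP, rose by 2.77 (SE 0.42, adjusted p = 0.0318; 1.66 after renormalization). Ppargc1a, a coactivator of mitochondrial biogenesis, differed by 0.72 and Tfb1m by at least 0.63, without passing. Of the 12 regulators 1 passed and 8 were positive, with a median of 0.47 (0.32 after renormalization). Tfam (-0.20), Ppargc1b (-0.062), Pprc1 (-0.044) and Esrra (-0.028) were negative.

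Of 15 genes of the citric acid cycle and pyruvate dehydrogenase 6 rose and 0 fell, with a median of 1.37, among them Mdh2 by 2.04, Pdha1 by 2.54 and Idh3b by 1.37. Of these 15 genes 11 lay in the brightest decile, and after renormalization the median was 0.36, 5 were negative and Idh3b was at 0.079. Of 13 carriers, channels and import genes Timm23 (2.54) and Vdac3 (2.84) rose, and Vdac2 differed by 2.83 without passing. Timm23, of the inner membrane import channel, was at 1.59 after renormalization (adjusted p = 0.0434). Of 13 genes of coenzyme Q and heme synthesis 0 passed, with a median of 0.11, and Cpox differed by 1.02, Coq5 by 0.46 and Coq7 by 0.34. For comparison, 8 of 36 complex I genes rose with a median of 0.91 (0.27 after renormalization), and 6 of 77 mitochondrial ribosomal protein genes with a median of 0.20 (0.058). Of 61 cytosolic ribosomal protein genes 8 rose, with a median of 1.415 (0.12), above that of the 48 respiratory genes as deposited.

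Markers of the cells in the gland were read beside these values. Of 10 luminal epithelial markers 3 rose (Epcam by 2.49, Elf5 by 3.43 and Cdh1 by 1.37), and their summed signal was 8.35 to 8.82 in cyclin D1 glands and 7.04 to 7.11 in controls. Of 9 milk genes, all in the brightest decile, 7 rose, with the smallest p for Csn3, Plin2 and Xdh, with sums of 13.9 to 14.2 in cyclin D1 glands and 11.8 to 12.5 in controls. The 48 respiratory genes summed to 11.8 to 12.6 in cyclin D1 glands and 9.95 to 10.8 in controls, and all genes to 18.4 to 18.7 in cyclin D1 glands and 17.6 to 17.9 in controls. Of 8 myoepithelial markers Acta2 rose by 2.48, while Myh11 differed by 1.66 and Trp63 by 0.36. Oxtr (-0.29), Mylk (-0.11) and Krt14 (-0.098) were negative, and the list median was 0.45 (0.16 after renormalization). Myoepithelial sums were 7.49 to 8.39 in cyclin D1 glands and 6.31 to 6.83 in controls. After renormalization 0 luminal markers, 0 myoepithelial markers and 1 milk gene, Plin2, passed.

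White adipocyte (11 measured), endothelial (6), leukocyte (9) and fibroblast (6) markers gave 0 calls, and the values beside single genes here are log2 differences. White adipocyte sums were 9.84 to 11.1 in cyclin D1 glands and 9.77 to 10.2 in controls, with Lpl at 1.85, Pparg at 0.76 and Pnpla2 at 0.73. Of the 11 white adipocyte markers 6 were positive. Plin4 (-0.21), Lep (-0.19), Retn (-0.19), Adipoq (-0.10) and Plin1 (-0.064) were negative. Endothelial sums were 5.90 to 6.58 in cyclin D1 glands and 5.66 to 5.91 in controls, with Emcn, Cdh5 and Kdr at 0.89, 0.49 and 0.42. Leukocyte sums were 6.85 to 8.51 in cyclin D1 glands and 6.68 to 7.26 in controls, with Lyz2, Cd68 and Cd79a at 1.46, 1.41 and at most -0.35. Fibroblast sums were 8.35 to 9.30 in cyclin D1 glands and 7.02 to 8.79 in controls, with Dcn, Col3a1 and Pdgfra at 1.07, 0.43 and 0.33. Positive differences were found for 5 of the 6 endothelial, 6 of the 9 leukocyte and 4 of the 6 fibroblast markers. The median differences of the white adipocyte, leukocyte and fibroblast lists, 0.29, 0.11 and 0.38, had the opposite sign after renormalization (-0.60, -0.15 and -0.30). The part of the epithelial share in the respiratory gene values was not tested.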

How the data were processed

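The values analysed were the deposited log2 expression values per probe set of 5 arrays, for which the submitters' processing notes name Affymetrix Expression Console 1.1 and the method RMA. RMA subtracts background, equalizes array distributions and summarizes probes into sets; which arrays entered it together was not stated. That values are log2 follows from RMA and their span (0.830 to 12.9). Samples were grouped by title, and the series' design text calls the mice separate, so each array was 1 replicate. No detection calls were used. Precision is limited by the small number of arrays.

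Of 35556 probe sets, 21789 had 1 gene symbol in the platform annotation, 1621 several and 12146 none; 21698 matched RefSeq (GRCm38.p6) by Entrez identifier and 0 symbols changed. For each of 19938 genes the probe set with the highest mean was tested with limma 3.58.1 in R 4.3.3 (3 residual and 2.39 prior degrees of freedom; two-sided; Benjamini-Hochberg over all genes; threshold 0.05). Isoform pairs were compared by exact permutation in SciPy 1.17.1. The mean of 1015 olfactory receptor genes per array was the rough floor; a gene at or below it on all arrays of its dimmer group has a bound only. On simulated data of 19938 genes limma called 15% of 100 genes shifted by 1 log2 unit and 92% of 100 shifted by 2, and 4 unshifted genes. Because the measured arrays differed in range, the simulation gives neither the power nor the rate of false calls of the real comparison.

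Named were, in each complex, the 3 members with the smallest p and those with the highest and lowest difference, the isoform pairs and subunit c genes, and in each list the 3 genes with the smallest p. Other named genes were chosen after their values were seen. The members, lists, motifs and floor were chosen with earlier results of these data known. Alternatives were renormalization, median centring, probe set means per gene, leaving out dim genes, an intensity trend, the replicate number as a block and each array left out; renormalization without control replicate 1 was chosen after seeing the data. Cox7c has only probe sets shared with Gm12338 and was left out of the comparison.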

Additional observations from a re-analysis of the deposited data

Results flagged for a closer look

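Cox7c, a small subunit of complex IV, was outside the comparison because its 3 probe sets are annotated to Gm12338 as well. Their signal was above both controls on all 3 cyclin D1 arrays. The means over cyclin D1 arrays were 8.54 (probe set 10388461), 8.35 (probe set 10410921) and 8.68 (probe set 10442922), and the control means were 7.69, 7.52 and 7.94. The differences of 0.84, 0.83 and 0.74 are below the median of 1.59 in the brightest decile of genes.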

How the results depend on the processing

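Renormalization left 51 genes higher and 21 lower, 0 members called and a member median of 0.13, and turned the sign of 17 members. Among those named by rule these were Sdhc (-0.086), Sdhb (-0.18), Sdhd (-0.42), Cox5b (-0.32), Cox8a (-0.71), Cox8b (-0.55), Cox7a1 (-0.36), Cox6a2 (-0.096), Atp5g1 (-0.35), Atp5d (-0.032), and Atp5g2 (-0.86), the others being Uqcrfs1, Uqcr11, Cox6c, Cox7a2l, Atp5l and Atp5j. The Cox8b minus Cox8a pair turned to 0.16. Renormalized without control replicate 1, 555 genes were higher and 894 lower, 3 members higher and 2 lower, the member median was -0.052, and negative values were found for Sdhc (-0.35), Sdhb (-0.33), Sdha (-1.11), Sdhd (-0.62), Uqcrq (-0.015), Cox5b (-0.10), Cox8a (-0.37), Cox8b (-1.096), Cox6a2 (-0.48), Atp5g3 (-0.019), Atp5g1 (-0.57), Atp5d (-0.14) and Atp5g2 (-0.59). The cause was not tested. With an intensity trend 622 genes and 5 members were higher. With the filter on dim genes 56 were lower among fewer genes tested.

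Leaving out each array in turn gave 0 to 1365 genes higher, 0 to 1063 lower, 0 to 13 members higher, 0 to 1 lower (Cox6b2, without control replicate 2) and a member median of 0.88 to 1.49. The differences ranged from -0.78 to 1.095 for Cox8b, from -0.43 to 0.43 for Cox7a1, from -0.27 to 0.29 for Cox6a2 and from -1.68 to 0.045 for the Cox8b minus Cox8a pair. Deviations from the group means of same-numbered arrays correlated over genes at -0.026 for number 1 and 0.126 for number 2. With only 2 controls their deviations mirror each other, so these values cannot decide whether the replicate numbers pair the mice. With the replicate number as a block, 10 genes were lower, 1137 higher and 10 members higher, and Cox6a2 was at -0.089. Of the 10 members called in each fit, 6 were shared. Median centring and the mean of probe sets kept all counts within 1.5 times.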
